A study of Mus musculus with 8 samples.

Results

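The genes described here are 28 members of the cholesterol synthesis pathway and of the SREBP2 system that controls it, out of 24821 genes counted in mouse epididymal white adipose tissue (eWAT), the visceral fat pad beside the testis. They were listed by name and role, with no threshold on a measured value but with earlier results of these data known: 20 enzymes of the route to cholesterol, 4 regulators of SREBP2 and 4 proteins that move or store cholesterol. All 28 were found once each in the gene table. RNA was sequenced from eWAT of male Ccdc92 knockout (KO) mice on a C57BL/6 background and of their age-matched wild-type (WT) littermates, with 4 libraries per genotype. Both genotypes ate a high-fat diet over 14 weeks, in which fat supplied 60% of the calories, protein 20% and carbohydrate 20%, so no library shows either genotype on chow. The sources used here do not give the age in weeks, the deleted stretch of Ccdc92 or whether each library came from a separate animal. The p-values therefore set the difference between genotypes against the spread between these libraries, which may not be the spread between animals. Comparing the genotypes asks how loss of Ccdc92, a gene for a coiled-coil protein, was accompanied by differences in sterol gene expression in obese fat.

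Cells build cholesterol from acetyl-CoA through mevalonate, isoprenoid diphosphates, squalene and lanosterol, and most genes of this route share a transcriptional activator, SREBP2. When sterols in the endoplasmic reticulum are low, the escort protein SCAP carries SREBP2 to the Golgi, where proteases release its active part; when sterols are high, INSIG proteins hold SCAP back. White fat stores a large pool of free cholesterol, mostly in adipocytes, and macrophages of obese fat take up lipid through lysosomes and store cholesterol as esters.

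Libraries held between 23681088 and 33817478 reads counted in genes. Ccdc92 had a normalized count of 4.85 to 9.67 in KO libraries, against 54.1 to 106 in WT libraries, so the libraries matched their genotype labels. Hemoglobin genes took 18% of the reads of KO replicate 3 and 0.36% to 0.495% of the other KO libraries, against 1.75% of WT replicate 4 and 0.233% to 0.258% of the other WT libraries. All 10 adipocyte markers on the list were present in every library. Their summed normalized counts were 1057986 to 1538637 in KO and 221019 to 455095 in WT, and all 10 were higher in KO. Of 10 macrophage markers, 9 were lower in KO and Mertk did not pass, with sums of 42194 to 67586 in KO and 116104 to 247165 in WT. Of 6 markers of lipid-associated macrophages, 5 were lower and Lpl, which adipocytes also express, was higher; without Lpl the sums were 3165 to 10918 in KO and 67872 to 211266 in WT. Genes of the male reproductive tract summed to 9.7 to 699.8 in KO and 50199 to 112589.7 in WT, with 4 of 5 tested lower. Lcn8, also on this list, was too low to be tested and went the other way in KO replicate 3. It had 107 there, 1.15 to 1.71 in the other KO libraries and 0 to 1.86 in WT. WT replicate 4 differed in kind, with Akr1b7 at 80636 and Adam7 at 0.936. The other WT libraries had 188 to 212 and 7805 to 19829. All 3 mast cell and 4 dividing cell markers were lower, as were 2 of 3 T cell and 2 of 5 fibroblast markers. Of 5 endothelial markers, 3 were higher, and 4 mesothelial markers did not pass. Marker calls use a limma adjusted p under 0.05, at which 20.2% of all tested genes were higher and 21.5% lower. The T cell, fibroblast and endothelial lists hold too few genes to set against those shares. The adipocyte, macrophage and tract sums do not overlap between genotypes, and their part in the results on sterol genes was not tested. In bulk tissue, fewer cells of a type and less RNA per cell cannot be told apart.

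Of the 28 genes, 13 were lower in KO, 4 were higher and 11 did not pass the test (limma on log2 normalized counts plus 1, Benjamini-Hochberg adjusted p under 0.05 over 17798 genes). The table as a whole moved widely: 41.7% of all tested genes were called, 20.2% higher and 21.5% lower. Among the 28, 60.7% were called, 14.3% higher and 46.4% lower. The share of lower calls was above that of the table, and the share of higher calls, resting on 4 genes, was not far below it. The median log2 fold change, KO over WT, was -0.42 for the 28 genes and -0.01 for all genes tested. For 15 of the 28, or 53.6%, no KO library overlapped a WT library, against 42.1% of all genes. Quantile normalization in place of the deposited scaling shifted the median of all genes by 0.104 and gave 4593 higher and 3257 lower genes in the whole table, where the deposited scaling gave 3592 higher and 3831 lower. Under it the 28 genes still had 4 higher and 13 lower calls, with a median of -0.39. Without the pair of libraries richest in hemoglobin, KO replicate 3 and WT replicate 4, 3 were higher and 12 lower.

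All 4 transport and storage genes and 4 of 9 sterol-stage enzymes were lower, with none higher in either set by limma, nor at an unadjusted limma p under 0.05 or by edgeR or DESeq2. The mevalonate, isoprenoid and squalene stages, 11 enzymes together, had 1 higher and 1 lower call each. Of all genes tested, 20.2% were higher and 21.5% lower, so these 11 lay near the table in both directions. Across the 20 synthesis enzymes, 3 were higher, near the share of the table, 7 lower and 10 not called, with a median log2 fold change of -0.22.

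**Figure D1:**
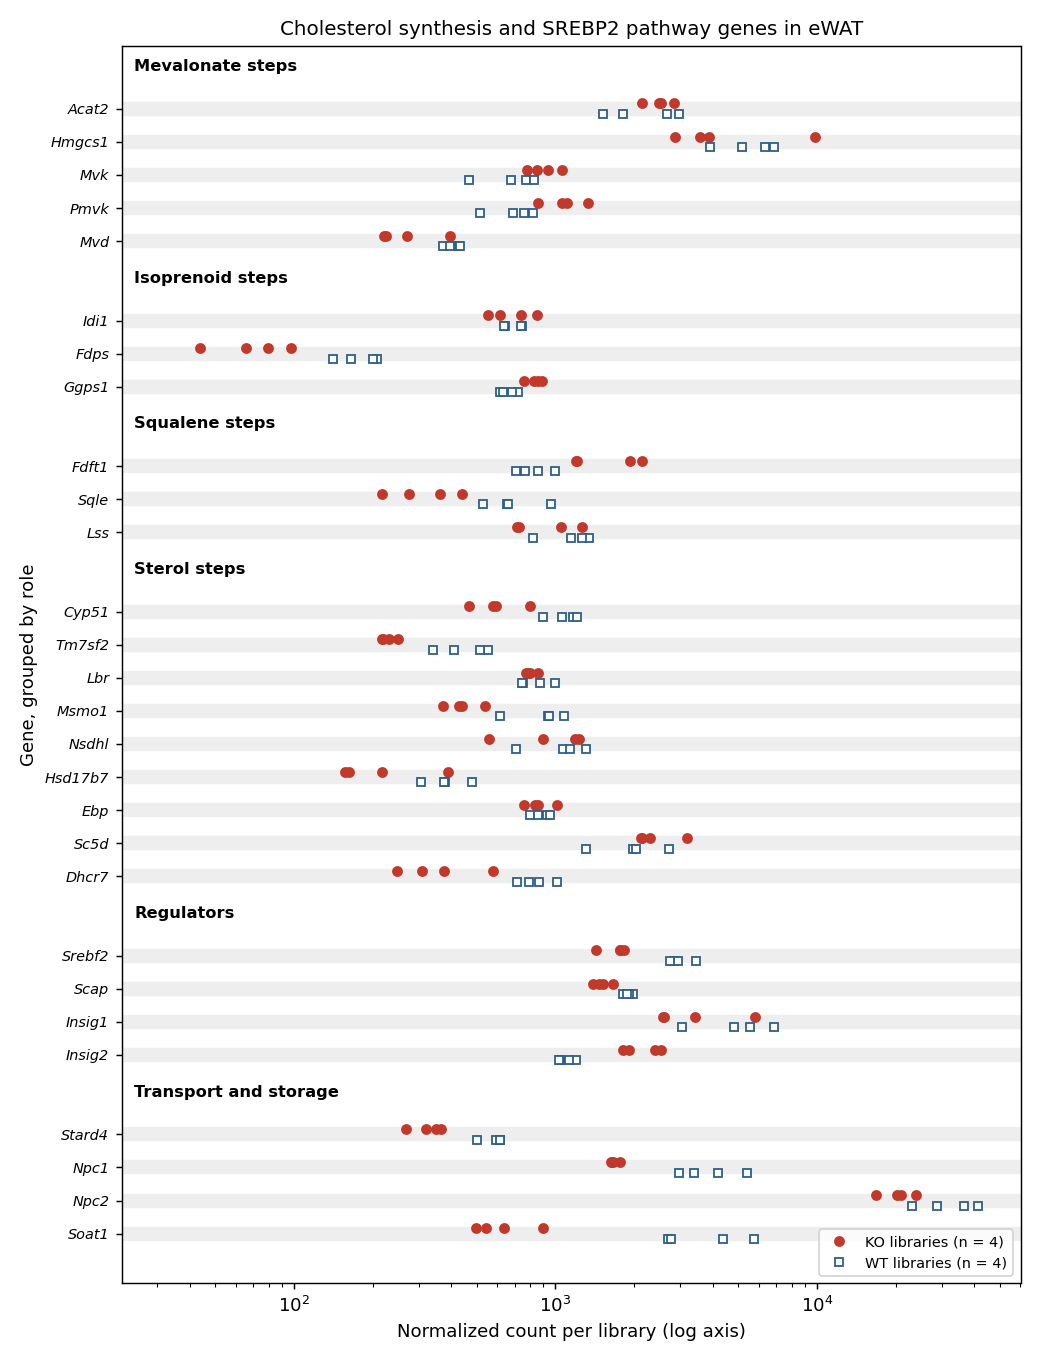
Normalized counts of the 28 genes, on a log axis, in each of 4 KO libraries (red dots) and 4 WT libraries (blue squares, set below the dots), 1 gene to a row, grouped by role. Soat1 and Npc1 separate cleanly with KO below WT, Insig2 separates with KO above WT, and Hmgcs1 and Insig1 overlap broadly.

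Promoter sequences were read for the members to set their shared control elements beside their values. Whether an element went with a direction of change was not tested. RefSeq promoters on GRCm38.p6, from 250 bases before to 50 after the start, matched 23 of the 28 members with 29 promoters; Fdps, Fdft1, Sqle, Stard4 and Npc1 were not matched. The sterol regulatory element was searched as TCACNCCAC on both strands. An exact match was present in 1 of the 29, that of Hmgcs1, against 1.24% of 32851 promoters. Variants of the element were not searched, so promoters without a match may still hold one. This is the Hmgcs1 stretch at chr13:119690184-119690252 on the plus strand, with the match in capitals, 137 bases before the start.
Hmgcs1: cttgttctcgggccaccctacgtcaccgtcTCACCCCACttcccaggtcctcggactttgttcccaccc

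The CCAAT box, which NF-Y binds beside SREBP at many sterol genes, was searched as CCAAT on both strands, so that ATTGG is the same box read on the other strand. Within 250 bases before to 50 after the start it was found in 72.4% of the members' promoters, 21 of 29, against 37.4% of all promoters. Within the 100 bases before the start the shares were 62.1% for the members, 18 of 29, and 18.9% for all. The E-box CACGTG was in 6 of 29, or 20.7%, against 7.15% of all. These are shares of letters in fixed windows and say nothing of binding. The 100 bases before the start are shown for 5 members, with the boxes in capitals, a choice made after their values were seen. The 5 members shown had a CCAAT box within those 100 bases and a RefSeq start equal to the annotated gene start. They are Insig2 at chr1:121332590-121332689, Ggps1 at chr13:14063489-14063588, Mvd at chr8:122443423-122443522 and Ebp at chrX:8193513-8193612, all on the minus strand, and Mvk at chr5:114444169-114444268 on the plus strand.
Insig2: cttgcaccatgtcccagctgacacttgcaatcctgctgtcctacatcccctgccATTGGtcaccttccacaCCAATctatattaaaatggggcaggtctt
Ggps1: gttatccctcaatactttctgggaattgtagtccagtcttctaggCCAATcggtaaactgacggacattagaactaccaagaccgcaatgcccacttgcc
Mvd: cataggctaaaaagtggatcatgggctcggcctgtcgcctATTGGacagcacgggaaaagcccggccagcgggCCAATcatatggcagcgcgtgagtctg
Ebp: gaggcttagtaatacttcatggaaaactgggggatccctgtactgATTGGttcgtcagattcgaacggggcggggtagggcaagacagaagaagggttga
Mvk: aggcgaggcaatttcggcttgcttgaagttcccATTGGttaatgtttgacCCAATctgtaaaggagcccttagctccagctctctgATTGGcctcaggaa
Of these 5, Insig2 and Ggps1 were higher in KO, Mvd was lower, and Ebp and Mvk did not pass, so the 5 promoters shown belonged to genes of every outcome.

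Soat1 showed the widest gap of the 28. It lies on chromosome 1 at 156424525 to 156474331 on the minus strand (GRCm38, as all positions here) and encodes the acyltransferase that esterifies cholesterol for storage in droplets. Its normalized counts were 637, 899, 541 and 498 in KO replicates 1 to 4, against 5744, 2695, 4354 and 2771 in WT replicates 1 to 4. Every KO library lay below every WT library, and the KO mean was 16.5% of the WT mean, with 644 ± 179.8 in KO and 3891 ± 1453 in WT (SD, n = 4 each). The log2 fold change was -2.56 with a standard error of 0.28 (limma, adjusted p = 0.000538). The WT libraries spread over 2.13-fold, and WT replicate 1 was the highest.

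Npc1 and Npc2 act in sequence to carry cholesterol out of lysosomes, NPC2 inside the lumen and NPC1 in the membrane. Npc1 had 1663, 1760.4, 1633 and 1651 in KO libraries and 5396, 2966, 4202 and 3394 in WT libraries. The KO values were nearly level, 1.08-fold from lowest to highest, while WT values spanned 1.82-fold and stayed above all of them. Npc1 fell by 1.21 on the log2 scale (standard error 0.17, limma, adjusted p = 0.00115). Npc2, the most abundant of the 28 per kilobase of exon, had 21019.8, 23831, 20271 and 16829 in KO libraries and 28664, 41331, 36423 and 23053 in WT libraries. Here KO replicate 2 lay above WT replicate 4, so the groups overlapped. Its log2 fold change was -0.64 with a standard error of 0.20 (limma, adjusted p = 0.0304). That call was lost without KO replicate 1 (adjusted p = 0.0596), KO replicate 3 (0.0644), KO replicate 4 (0.077), WT replicate 2 (0.0649) or WT replicate 3 (0.0844); over all alternatives the limma, edgeR and DESeq2 adjusted p ran from 0.00344 to 0.0844.

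Stard4 encodes a soluble protein that carries sterol between membranes and, in cultured cells, is induced when sterols are low. It had 349, 365, 269 and 319 in KO libraries and 614, 591, 612 and 500 in WT libraries. Groups did not overlap, and the KO mean was 56.2% of the WT mean (log2 fold change -0.83, standard error 0.12, limma, adjusted p = 0.00125).

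Among the regulators, Srebf2, the gene for SREBP2 itself, at chromosome 15, 82147181 to 82205379, was lower in KO. Its normalized counts were 1766, 1823, 1435 and 1773 in KO libraries and 3448, 2847, 2946 and 2735 in WT libraries. No values overlapped, and the KO mean of 1699 ± 178 was 56.8% of the WT mean of 2994 ± 315 (SD, n = 4 each). The log2 fold change was -0.82 with a standard error of 0.11 (limma, adjusted p = 0.000865). Scap, the escort, was lower as well, at 1395 to 1658 in KO and 1815 to 1974 in WT (log2 fold change -0.33, standard error 0.07, limma, adjusted p = 0.00755). Scap varied by 1.19-fold over the KO libraries and 1.09-fold over the WT libraries, and no values overlapped.

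Of the INSIG genes, whose products retain SCAP in the endoplasmic reticulum, 1 was called. Insig2, at chromosome 1, 121304353 to 121332589, was higher in KO, with 1908, 1807, 2412 and 2539 in KO libraries and 1043, 1200.2, 1124 and 1028 in WT libraries. All KO values exceeded all WT values, and Insig2 rose by 0.97 on the log2 scale (standard error 0.12, limma, adjusted p = 0.00082). Insig1, which is itself an SREBP target in cultured cells, had 3421, 5796, 2612 and 2573 in KO libraries and 3038, 6879, 4823 and 5523 in WT libraries. Its groups overlapped, with KO replicates 1 and 2 above WT replicate 1, and its log2 fold change of -0.52 with a standard error of 0.32 did not pass (limma, adjusted p = 0.221). The log2 ratio of Insig1 to Insig2 within a library averaged 0.66 ± 0.77 in KO and 2.15 ± 0.44 in WT (SD, n = 4 each).

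**Figure D2:**
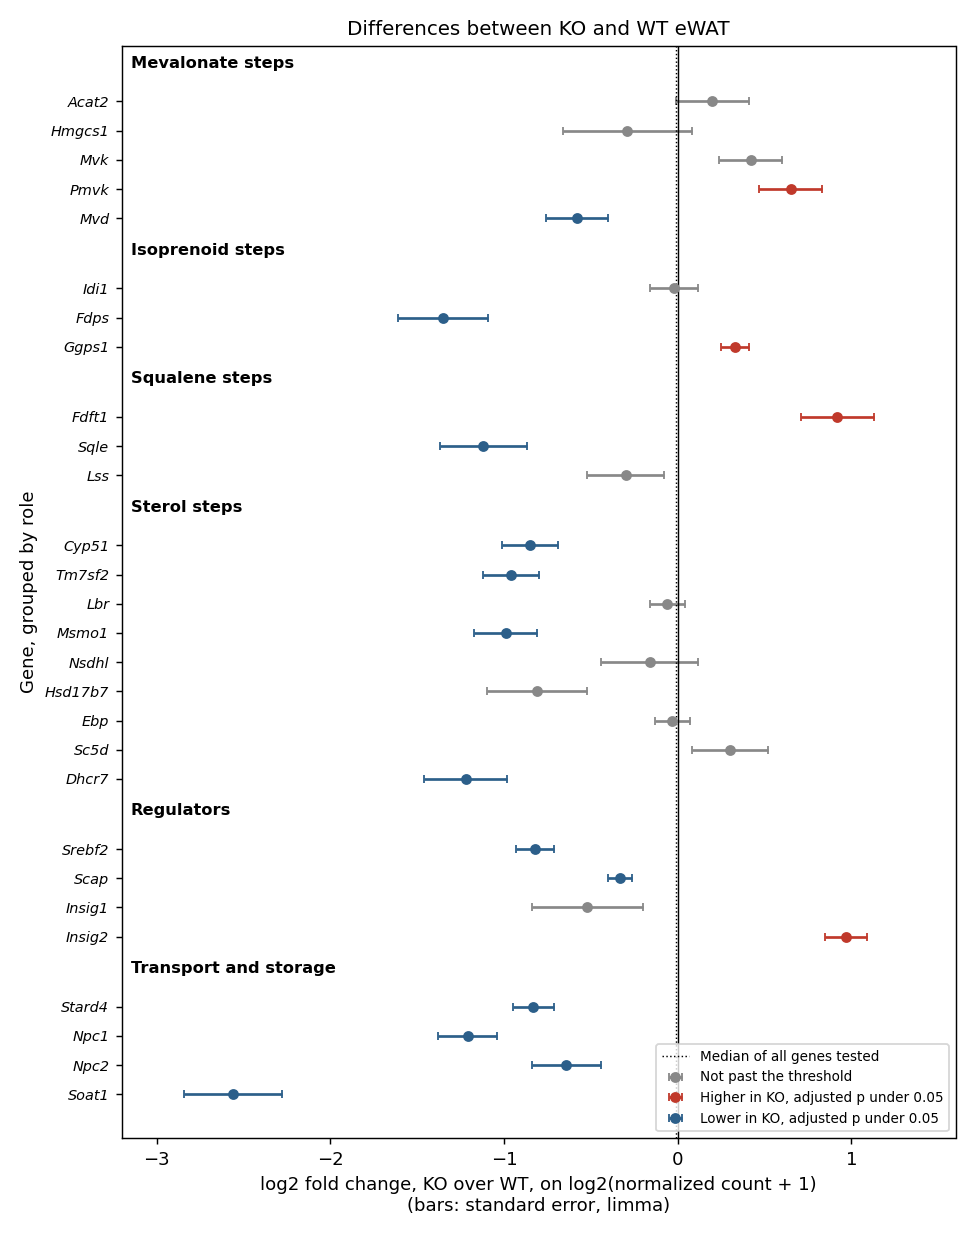
Log2 fold change, KO over WT, of each of the 28 genes with its limma standard error, grouped by role; red marks genes higher in KO, blue genes lower in KO and grey genes that did not pass. Transport and storage genes all lie left of the dotted median of all genes, while mevalonate, isoprenoid and squalene stages each hold a gene on either side.

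At the head of the pathway, the mevalonate enzymes did not move as a block. Acat2, the cytosolic thiolase that joins acetyl-CoA units, averaged 2496 ± 281 in KO and 2244 ± 686 in WT and did not pass (log2 fold change 0.20, limma, adjusted p = 0.476). Reads of Acat2 are uncertain, since 45.9% of its 50-base windows also occur in Acat3. Hmgcs1, the cytosolic HMG-CoA synthase, whose promoter held the exact TCACNCCAC match, had 3859.9, 9842, 2875 and 3557 in KO libraries and 3916, 6825, 5186 and 6301 in WT libraries. KO replicate 2 exceeded every WT library while the other 3 KO libraries lay below all of them. With every library in, the log2 fold change was -0.29 with a standard error of 0.37 (limma, adjusted p = 0.551). Without KO replicate 2 it was -0.67 and passed (limma, adjusted p = 0.0351), and over all alternatives the adjusted p ran from 0.0351 to 0.985.

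Past the committed step lie a pair of kinases and a decarboxylase. Pmvk, which adds the phosphate that makes mevalonate diphosphate, was higher, with 1112, 1331, 1058 and 856 in KO libraries and 514, 759.7, 687 and 821 in WT libraries. The lowest KO value stood just above the highest WT value, and the log2 fold change was 0.65 with a standard error of 0.18 (limma, adjusted p = 0.0178). Mvk, the kinase before it, had 777 to 1058 in KO and 468 to 829 in WT, overlapping, and did not pass (log2 fold change 0.42, limma, adjusted p = 0.0941). Mvd, the decarboxylase that makes isopentenyl diphosphate, was lower, with 271, 394, 221 and 224 in KO libraries and 427, 429.9, 371 and 395 in WT libraries. KO replicate 2 lay above WT replicate 3, and the log2 fold change was -0.58 with a standard error of 0.18 (limma, adjusted p = 0.031). The Mvd call was lost on leaving out any single library other than KO replicate 2, and without both KO replicate 3 and WT replicate 4; its adjusted p ran from 0.00253 to 0.118 over the alternatives.

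Isoprenoid diphosphates serve cholesterol as well as protein prenylation, ubiquinone and dolichol. Idi1, the isomerase of isopentenyl diphosphate, had 554 to 852 in KO and 637 to 746 in WT. Its log2 fold change was -0.02 (limma, adjusted p = 0.928). Part of its reads is uncertain, since 21.3% of its 50-base windows also occur in Gm13502. Gm13502 had 132 to 229.9 in KO and 171 to 215 in WT. Fdps, which makes the farnesyl diphosphate at the branch point, had 79.3, 97.4, 65.6 and 43.7 in KO libraries and 166, 208, 201 and 141 in WT libraries. Groups did not overlap, and the KO mean was 40% of the WT mean (log2 fold change -1.35, standard error 0.26, limma, adjusted p = 0.00388). Its values are the least secure of the set. Only 36 reads stood behind the KO replicate 4 value, with an exact Poisson interval of 25.2 to 49.8 reads that covers counting error only, and 86.4% of the gene's 50-base windows occur in other annotated genes too. Ggps1, which extends farnesyl to geranylgeranyl diphosphate for prenylation, was higher, with 756, 825, 892 and 854 in KO libraries and 720.1, 684, 613 and 628 in WT libraries. All KO values exceeded all WT values by a narrow margin (log2 fold change 0.33, standard error 0.08, limma, adjusted p = 0.014). Without both KO replicate 3 and WT replicate 4, Ggps1 missed the threshold (log2 fold change 0.27, limma, adjusted p = 0.079); the range over alternatives was 0.00125 to 0.079.

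Consecutive squalene enzymes were called in opposite directions. Fdft1, squalene synthase, at chromosome 14, 63145150 to 63179578, had 1212, 1201, 2144 and 1931 in KO libraries and 709, 1000.1, 857 and 765 in WT libraries. Every KO library was above every WT library, and KO replicates 3 and 4 were the highest (log2 fold change 0.92, standard error 0.21, limma, adjusted p = 0.00942). Sqle, the squalene epoxidase that follows, had 362, 441, 276 and 218 in KO libraries and 959.5, 652, 657 and 528 in WT libraries. No KO library reached the lowest WT library (log2 fold change -1.12, standard error 0.25, limma, adjusted p = 0.00789). The log2 ratio of Fdft1 to Sqle averaged 2.32 ± 0.85 in KO and 0.27 ± 0.48 in WT, with no overlap. Fdft1 shares 774 bases of exon with Ctsb on the opposite strand, and whether the counting used strand is not given in the sources used here. Ctsb itself was lower in KO, at 53355 to 76576, against 127725 to 226230.4 in WT, the reverse of Fdft1. Fdft1 also has 10.9% of its sequence windows in common with Gm6781, which was higher in KO, as Fdft1 was. Gm6781 had 11.1 to 18.2 in KO and 6.5 to 10.6 in WT (log2 fold change 0.86, limma, adjusted p = 0.0421). The part of either gene in the Fdft1 values was not tested. Lss, which closes squalene epoxide to lanosterol, had 714 to 1265 in KO and 822 to 1345 in WT and did not pass (log2 fold change -0.30, limma, adjusted p = 0.303).

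Sterol-stage enzymes turn lanosterol into cholesterol, and Dhcr7, which catalyses the last reduction of the Kandutsch-Russell route, had the largest decrease among the 9. Its values were 376, 579, 309.6 and 247 in KO libraries and 714, 869, 794 and 1014 in WT libraries. The groups did not overlap, and the KO mean of 378 ± 144 was 44.6% of the WT mean of 848 ± 128 (SD, n = 4 each; log2 fold change -1.22, standard error 0.24, limma, adjusted p = 0.00508). Cyp51, the lanosterol demethylase, had 579, 796, 592 and 468 in KO libraries and 1169, 1211, 1056 and 899.8 in WT libraries. Msmo1, the methylsterol oxidase that acts in the following demethylations, had 427, 538, 439 and 371 in KO libraries and 1076, 937, 945 and 616 in WT libraries. Neither gene overlapped, with log2 fold changes of -0.85 for Cyp51 (standard error 0.16, limma, adjusted p = 0.00441) and -0.99 for Msmo1 (standard error 0.18, limma, adjusted p = 0.00366).

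The partners of Msmo1 in the demethylation complex did not pass. Nsdhl, the dehydrogenase, had 555 to 1235 in KO and 704 to 1309 in WT (log2 fold change -0.16, limma, adjusted p = 0.682). Hsd17b7, the ketosteroid reductase, had 218, 389.7, 157 and 163 in KO libraries and 379, 478, 374 and 307 in WT libraries. Apart from KO replicate 2, every KO library of Hsd17b7 lay below every WT library. Its log2 fold change of -0.81, with a standard error of 0.29, missed the threshold narrowly (limma, adjusted p = 0.0503). It passed without KO replicate 2 (log2 fold change -1.10, limma, adjusted p = 0.00378), with DESeq2 (adjusted p = 0.0471) and, in limma, with a pseudocount of 10 (adjusted p = 0.0499). The range over alternatives was 0.00378 to 0.123.

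Tm7sf2 and Lbr encode enzymes that reduce the same sterol double bond, and Lbr also anchors lamins at the inner nuclear membrane. Tm7sf2 had 251, 219, 231 and 217 in KO libraries and 341, 554, 513 and 408 in WT libraries. All KO values were below all WT values and within 1.15-fold of each other (log2 fold change -0.96, standard error 0.16, limma, adjusted p = 0.00211). Tm7sf2 shares 532 bases, 12.1% of its exon length, with Vps51 on the same strand, and Vps51 was lower in KO too (log2 fold change -0.35, limma, adjusted p = 0.013), so part of the reads counted for Tm7sf2 is uncertain. In all, 11 of the 28 genes, 7 of them called, share exon bases with another annotated gene. Lbr had 774 to 859 in KO and 744 to 993 in WT, with a log2 fold change of -0.06 and a standard error of 0.10 (limma, adjusted p = 0.696). Ebp, the sterol isomerase, and Sc5d, the desaturase before Dhcr7, did not pass either. Ebp had 757 to 1012 in KO and 797 to 953 in WT (log2 fold change -0.03, limma, adjusted p = 0.819). Sc5d had 2116 to 3181 in KO and 1309.9 to 2714 in WT (log2 fold change 0.30, limma, adjusted p = 0.304). Idi1, Lbr and Ebp changed sign under at least 1 alternative scaling, so no direction is given for them.

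Ratios of related genes were compared within libraries, where the scaling between libraries cancels. There were 4 such pairs, tested by an exact two-sided permutation test over the 70 splits of 8 libraries into groups of 4, whose smallest possible p is 0.0286. Tm7sf2 over Lbr averaged -1.80 ± 0.09 in KO and -0.90 ± 0.36 in WT on the log2 scale (SD, n = 4 each), a difference of -0.90 with exact permutation p = 0.0286. Fdft1 over Sqle differed by 2.04 with the same exact p of 0.0286. Insig1 over Insig2 differed by -1.48 (exact permutation p = 0.0571), with KO replicate 2 inside the WT range. Ggps1 over Fdft1, the branch toward prenylation against the branch toward squalene, averaged -0.92 ± 0.36 in KO and -0.32 ± 0.26 in WT, a difference of -0.59 (exact permutation p = 0.0571). Here too KO replicate 2, at -0.54, lay inside the WT range, just above WT replicate 2 at -0.55. Adjusted over the 4 pairs, every exact p became 0.0571, so no ratio passed. A ratio at the smallest possible p cannot pass this adjustment unless most of the 4 reach that p, so the number of libraries limits this result. Without KO replicate 2, all 4 ratios had an adjusted exact permutation p of 0.0286, the smallest that 3 against 4 libraries allow. No other alternative brought a ratio past the threshold, and leaving out any other single library gave adjusted exact permutation p-values of 0.0571 to 0.143. Leaving out both KO replicate 3 and WT replicate 4 gave 0.2, but 3 against 3 libraries allow no exact p under 0.05.

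**Figure D3:**
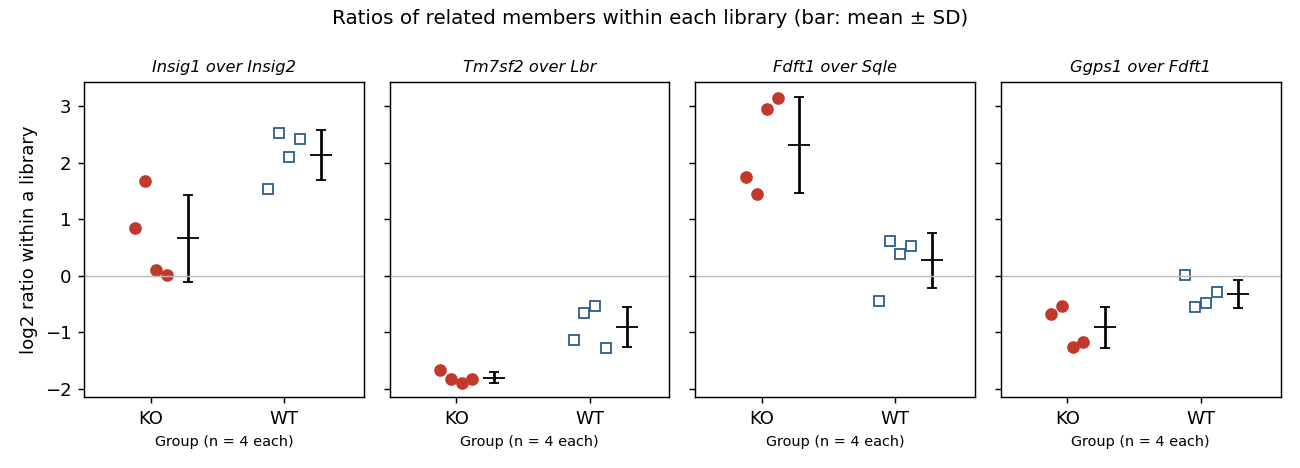
Log2 ratio of 4 pairs of related genes within each library, KO left and WT right in each panel; bars give the mean ± SD of 4 libraries. The ratios of Tm7sf2 to Lbr and of Fdft1 to Sqle do not overlap between genotypes. KO replicate 2 reaches into the WT range for Insig1 to Insig2 and, narrowly, for Ggps1 to Fdft1.

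The synthesis enzymes were also set side by side between libraries of the same genotype. KO replicate 2 was the highest KO library for 15 of the 20 enzymes, and for 28.7% of all genes tested. KO replicate 4 was the lowest for 13 of 20, and for 32.1% of all genes. WT replicate 2 was the highest WT library for 12 of 20, and for 27.7% of all genes. The lowest WT value was spread more evenly, with WT replicate 1 lowest for 9 of 20, WT replicate 4 for 6, WT replicate 3 for 4 and WT replicate 2 for 1. The median deviation from the group mean, on the log2 scale over the 20 enzymes, was 0.01, 0.37, -0.05 and -0.28 in KO replicates 1 to 4 and -0.19, 0.19, 0.01 and -0.04 in WT replicates 1 to 4. These medians span more in KO than in WT, which was not tested.

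**Figure D4:**
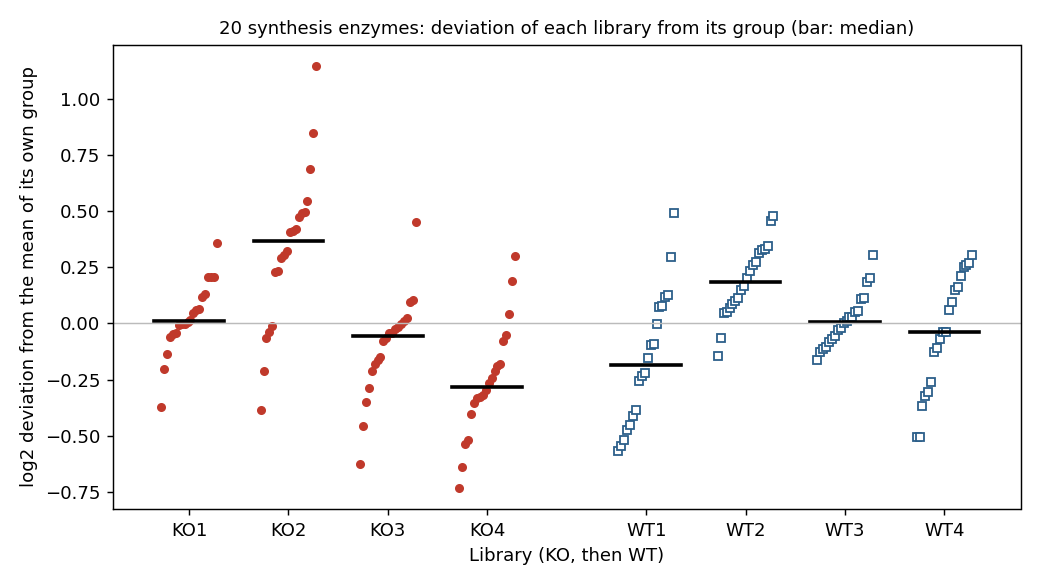
Deviation of each of the 20 synthesis enzymes from its own group mean, in log2 units, for KO replicates 1 to 4 (left) and WT replicates 1 to 4 (right), with the median as a bar. The KO replicate 2 median is at 0.37 and the KO replicate 4 median at -0.28, and the WT medians stay between -0.19 and 0.19.

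Levels were set beside each other per kilobase of annotated exon, as normalized count per kilobase. Npc2 led with 3768 in KO and 5952 in WT, followed in both genotypes by Insig1 (1164 and 1638), Hmgcs1 (1096 and 1209.6) and Acat2 (981 and 882). Fdps had the lowest counted level in both, at 17 in KO and 42.5 in WT, below Hsd17b7 at 45.4 and 75.3. This place is not secure, since 86.4% of the sequence windows of Fdps also occur in other annotated genes. The exon length used for Fdps, 4208 bases, includes 1124 bases shared with Gm43738 on the same strand. Whether shared sequence or this length lowered the value of Fdps was not tested. The order differed most for Soat1, which ranked 22 of 28 in KO and 8 in WT, and for Fdft1, which ranked 8 in KO and 17 in WT. Srebf2 ranked 12 in KO and 5 in WT, while Insig2 ranked 6 in KO and 12 in WT. In KO, the levels of Hmgcs1 and Acat2, neighbours in this order, lay closer than the spread of Hmgcs1 over libraries.

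Other genes of the pathway were counted in 3 companion lists. Of 14 genes for SREBP processing and sterol-regulated degradation, 2 were higher, 2 lower and 10 not called, with a median log2 fold change of -0.02. That is 14.3% in each direction, near the 20.2% higher and 21.5% lower among all genes tested, given a list of 14. Under quantile normalization 3 were higher and 1 lower. The higher ones were Srebf1, whose product SREBP1 drives fatty acid synthesis, and Nfe2l1, a cholesterol-sensing factor of the endoplasmic reticulum. Srebf1 had 12192 to 16379 in KO and 5522 to 7515 in WT (log2 fold change 0.96, limma, adjusted p = 0.00137), the opposite direction to Srebf2. Mbtps2, the site-2 protease that completes SREBP cleavage, was lower, at 459 to 533 in KO and 616 to 813 in WT (log2 fold change -0.53, limma, adjusted p = 0.00459), as was Erlin2 (log2 fold change -0.45, limma, adjusted p = 0.0453).

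Of 15 genes of the isoprenoid branch, 5 were higher, 2 lower and 8 not called, with a median of 0.13. The shares were 33.3% higher and 13.3% lower, against 20.2% and 21.5% of all genes, a gap of few genes in a list of 15. Coq2, which attaches the isoprenoid tail of ubiquinone, had 1545 to 1843 in KO and 925 to 1112 in WT (log2 fold change 0.76, limma, adjusted p = 0.000631). Fnta, a subunit shared by enzymes that attach farnesyl or geranylgeranyl groups to proteins, had 1864 to 2036 in KO and 1505 to 1570.4 in WT (log2 fold change 0.34, limma, adjusted p = 0.0031). Chml, a Rab escort protein, had 432 to 512 in KO and 312 to 356 in WT (log2 fold change 0.49, limma, adjusted p = 0.00434). Rabggta, a subunit of the transferase that prenylates Rab proteins, and Nus1, a subunit of the dolichol synthase, were lower (log2 fold change -0.55 and -0.43; limma, adjusted p = 0.00211 and 0.0205).

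Of 14 further genes of sterol transport and ester turnover, 9 were lower, 5 were not called and none was higher by limma, edgeR or DESeq2; at an unadjusted limma p under 0.05, 1 was higher. The share of lower calls was 64.3%, against 21.5% of all genes, and the median was -0.62. Lipa and Nceh1 had differences as large as that of Soat1. Lipa, the lysosomal acid lipase that frees cholesterol from esters, had 3179.6, 4775, 3006 and 2724 in KO libraries and 34999, 15380, 25353 and 14722 in WT libraries (log2 fold change -2.66, limma, adjusted p = 0.000602). Nceh1, a hydrolase of stored cholesterol esters, had 539.6 to 890.4 in KO and 3482 to 6816 in WT (log2 fold change -2.89, limma, adjusted p = 0.000301). Both lay below WT in every KO library. Stard3, a late endosomal sterol carrier, was lower by a smaller margin (log2 fold change -1.06, limma, adjusted p = 0.000573). Macrophages express Lipa, Nceh1 and Soat1 strongly, and the macrophage and lipid-associated macrophage sums given above move with these genes; their part was not tested.

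**Figure D5:**
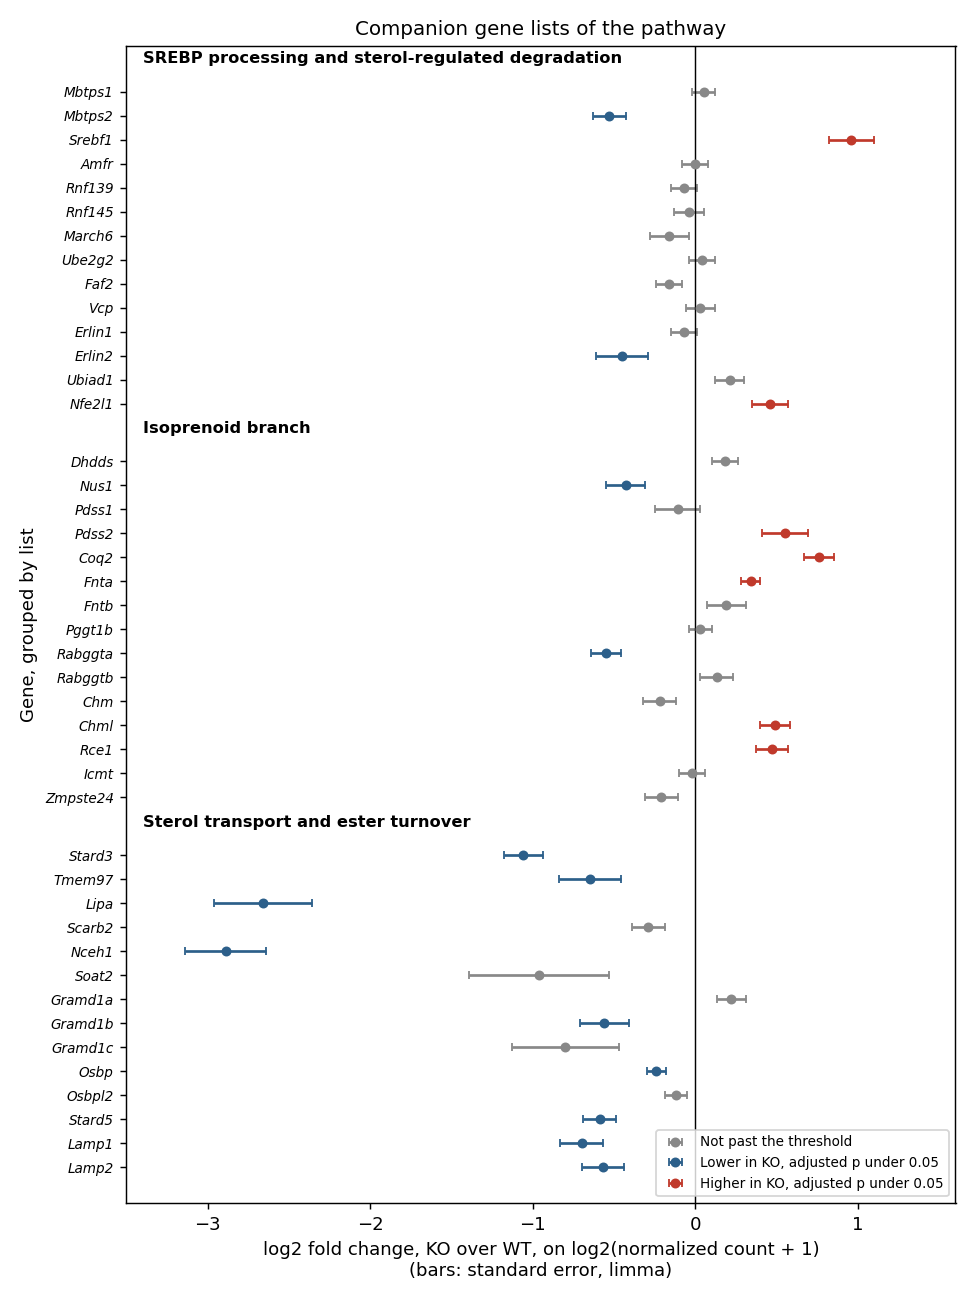
Log2 fold change, KO over WT, with limma standard errors, for the genes of 3 companion lists; red marks genes higher in KO, blue genes lower in KO and grey genes that did not pass. Nceh1 and Lipa lie farthest left at -2.89 and -2.66, and Srebf1 lies farthest right at 0.96.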

How the data were processed

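Per the submitters' processing notes, STAR 2.7.7, GRCm38.p6 and DESeq2 were used; neither the gene counter nor its strand setting is stated there or in the labels. The deposited values are a normalized signal, read counts per gene that the authors divided by a size factor for each library. Dividing by the step between values gave whole reads for 100.0% of values within 0.01 reads. Identifiers were matched to the GENCODE annotation of the same build (24802 of 24821 matched). Genes were tested where at least 4 libraries reached a normalized count of 10. KO was set against WT, with no covariate, by limma 3.58.1 (R 4.3.3) after adding a pseudocount of 1 and taking log2; fold changes are on that scale, which understates the change of low genes. edgeR 4.0.16, which called 7435 genes on the recovered reads, and DESeq2 1.42.0 were alternatives, beside other pseudocounts (0.5 and 10), no filter, quantile normalization, a replicate block and leaving out libraries. Replicates of a genotype differed by far more than counting noise (chi-square per degree of freedom 24.7 to 410.2). Libraries held 23681088 to 33817478 reads; intervals cover counting error only. Every member is named, and of each companion list at most 3 called genes in each direction, by smallest p. The members and lists were chosen with earlier results of these data known, so their counts are read beside those of all genes. Some other SREBP2 targets are not analysed here.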

Additional observations from a re-analysis of the deposited data

Results flagged for a closer look

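Each member was examined in each genotype for a library far from the other 3 (the gap to the nearest library as a share of the group's range, against Dixon's 95% critical value). Of 56 groups of 4 libraries, 3 passed, and chance alone flags about 1 in 20. Hmgcs1 stood apart in KO replicate 2, at 9842, while the other KO libraries had 2875 to 3859.9. Sc5d stood apart in the same library, at 3181, with the other KO libraries at 2116 to 2297. Srebf2 was lowest in KO replicate 3, at 1435, with the other KO libraries at 1766 to 1823.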

How the results depend on the processing

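Of 17 called members, 14 kept their call in all 16 alternatives; Mvd, Ggps1 and Npc2 did not. Over 448 values of members under alternatives, 414 kept direction and side of the threshold, 15 lost the call, 5 gained one and 14 changed sign. Sign changes concerned uncalled genes near 0, and the cause was not tested. Idi1 was 0.04 under quantile normalization, 0.02 with edgeR, 0.00 with DESeq2 and 0.06 without both KO replicate 3 and WT replicate 4; leaving out single libraries gave -0.13 to 0.08. Quantile normalization gave 0.00 for Lbr and 0.03 for Ebp, and leaving out single libraries gave -0.11 to 0.03 for Lbr, -0.11 to 0.03 for Ebp and -0.34 to 0.09 for Nsdhl. Lower calls numbered 1 among SREBP processing genes under quantile normalization and 1 in the isoprenoid branch without both KO replicate 3 and WT replicate 4. Without single libraries, or both KO replicate 3 and WT replicate 4, the ratio difference was -1.82 to -1.21 for Insig1 over Insig2, -1.03 to -0.78 for Tm7sf2 over Lbr, 1.77 to 2.34 for Fdft1 over Sqle and -0.72 to -0.46 for Ggps1 over Fdft1. Replicate numbers did not pair the libraries (correlations of deviations -0.143, 0.051, -0.041 and 0.172); with the replicate block 6266 genes were called, and 3 members were higher and 14 lower. Under the block Ggps1 missed the threshold (limma, adjusted p = 0.0579) and Hsd17b7 passed it (limma, adjusted p = 0.0184). For the block, the 4 ratios were tested by flipping the signs of the differences between same-numbered libraries, with adjusted exact sign-flip p-values of 0.167 to 0.25. Its 16 sign patterns allow no p under 0.05, so no ratio could pass there.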
